A study of Homo sapiens with 24 samples.

Results

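The genes described here are 9 of the 19158 genes listed in the deposited table and form the core of the mTOR and AKT signalling pathway: DDIT4, SESN2, MTOR, RPTOR, RICTOR, TSC1, TSC2, AKT1 and AKT2. They were found in the table by gene symbol, and all 9 were listed and passed the filter on low values. Their transcripts were measured by RNA-seq in ARP1, an established human multiple myeloma cell line, which is a tumour of plasma cells grown in culture. Cells received either LPA, labelled as 4 mg/mL, or PBS, the vehicle, and RNA was isolated after 24 h. LPA is taken as lysophosphatidic acid, a signalling lipid, although the labels do not spell the name out, and the unit of the dose is in doubt. Each group had 3 libraries, PBS 1 to 3 and LPA 1 to 3, and the 4 sequencing lanes of a library were averaged and counted as 1 replicate, which made 24 lane samples. All libraries came from 1 line with no genetic change named in the labels. Whether each library was a separate culture is not stated in the labels, and the p-values therefore measure only how far these libraries spread, which may be technical.

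The kinase mTOR works in a pair of complexes. With RPTOR it forms mTORC1, which promotes protein synthesis and restrains autophagy when nutrients and growth factors are present, and with RICTOR it forms mTORC2, which phosphorylates AKT. AKT, activated by PI3K, inhibits the TSC1-TSC2 complex, and that complex in turn switches off RHEB, the GTPase that activates mTORC1. DDIT4, also called REDD1, is induced by hypoxia, endoplasmic reticulum stress and glucocorticoids and restrains mTORC1 through the TSC complex, while SESN2 is a stress-induced leucine sensor that restrains mTORC1 by binding GATOR2. Plasma cells secrete large amounts of antibody and depend on these stress responses, and the PI3K, AKT and mTOR pathway is a known growth pathway in myeloma.

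The promoters of DDIT4 and SESN2 are shown because these are the stress-induced inhibitors among the 9 genes and the 2 whose libraries lay lower with LPA on both scales used here. Each line gives the 250 bases before the RefSeq transcription start in GRCh38.p14, 5′ to 3′ on the plus strand, which is the coding strand of both genes, at chr10:72273674-72273923 for DDIT4 and chr1:28259268-28259517 for SESN2. Capitals mark ACGTG, a form of the core of the hypoxia response element, and CCAAT, the box bound by NF-Y, read on either strand, so that CCAAT on the minus strand appears as ATTGG. Other forms of that core, such as GCGTG, were neither marked nor counted.
DDIT4: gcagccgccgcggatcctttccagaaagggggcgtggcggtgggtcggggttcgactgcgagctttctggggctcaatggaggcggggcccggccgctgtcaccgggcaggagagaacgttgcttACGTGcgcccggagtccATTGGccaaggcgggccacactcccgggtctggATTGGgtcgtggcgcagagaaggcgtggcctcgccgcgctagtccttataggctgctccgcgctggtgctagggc
SESN2: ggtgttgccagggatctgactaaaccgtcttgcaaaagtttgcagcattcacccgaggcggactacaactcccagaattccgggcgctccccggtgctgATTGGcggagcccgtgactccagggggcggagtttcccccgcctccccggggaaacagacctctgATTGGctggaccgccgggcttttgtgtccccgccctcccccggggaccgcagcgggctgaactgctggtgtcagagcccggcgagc
The DDIT4 promoter held 1 ACGTG, starting 125 bases before the start site, and 2 CCAAT boxes on the minus strand, 108 and 75 bases before it. The SESN2 promoter held no ACGTG and 2 CCAAT boxes on the minus strand, 151 and 86 bases before the start site. ACGTG occurred in 18.5% and CCAAT in 32.0% of 35116 RefSeq promoters of this length. The 9 genes had 12 such promoters, 2 each for TSC2, AKT1 and AKT2. ACGTG was found in 3 of the 12, those of DDIT4 and RICTOR and the first of TSC2, and CCAAT in 5, those of DDIT4, SESN2, MTOR and RICTOR and the second of AKT2. The ACGTG of TSC2 lay inside an E-box, CACGTG, a motif of 6.34% of promoters. TGATGNAA, the composite element bound by C/EBP and ATF factors, was found in 3.14% of promoters. Of the 12 it was in 1, the first of TSC2, and in neither DDIT4 nor SESN2. These matches describe the letters of the windows only.

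Values are FPM, the CPM unit for fragments: the reads of a gene scaled to the counted reads of its library. The PBS libraries held between 5498910 and 5615625 reads and the LPA libraries between 6941747 and 8740992, so that each of the 9 genes rested on 188 to 992 reads per library. The share of reads on nuclear protein-coding genes was 57.1% to 60.9% with PBS and 63.9% to 67.8% with LPA, and the median log2 difference of all 16274 tested genes was 0.13 on the deposited FPM. Each gene is therefore also given on a rescaled FPM, divided by the size factors of the median-of-ratios method, where that median was 0.0060. PBS 2 and LPA 3 stood apart from the other libraries of their groups in a chi-square comparison of reads over genes (3.72 and 3.79 per degree of freedom for PBS 2 against 1.33 between the other PBS libraries, and 2.46 and 2.89 for LPA 3 against 1.36). PBS 2 lay nearer to the LPA libraries (7.42 to 9.23) than PBS 1 and PBS 3 did (10.8 to 12.9). LPA 3 was the LPA library farthest from each PBS library. All 10 plasma cell and myeloma markers were listed, with a summed level of 1710 to 1873 FPM with PBS and 2757 to 2937 FPM with LPA. Markers of other blood and tissue cells were lower, summing to at most 6.98 FPM for monocytes, 3.09 FPM for T cells and 28.7 FPM for stromal cells, and MS4A1, CD3D, LYZ and EPCAM were not listed. The sums were at most 3.08 FPM for mature B cells, 7.93 FPM for epithelial cells and 1.01 FPM for erythroid cells and platelets. All 4 stromal markers had a mean of at least 1 FPM. In such bulk samples a smaller share of cells that express a gene and less of its RNA per cell cannot be told apart.

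Among these 9 genes, DDIT4 was the one called lower with LPA on both scales. Its level was 46.5, 41.9 and 46.0 FPM in PBS 1, 2 and 3 and 32.3, 27.5 and 32.6 FPM in LPA 1, 2 and 3. All 3 LPA libraries lay below all 3 PBS libraries, with a gap wider than the spread within either group. The mean was 44.8 ± 2.50 FPM with PBS and 30.8 ± 2.83 FPM with LPA (SD, n = 3 each), a level 1.46-fold lower with LPA. On log2(FPM + 1) the difference was -0.53 (SE 0.0946, 95% interval -0.72 to -0.34, limma, adjusted p = 2.03e-05), and DDIT4 ranked 443 from the lowest of the 16274 differences. On the rescaled values the difference was -0.67 (interval -0.84 to -0.49, limma, adjusted p = 4.30e-07). The single lanes ranged from 37.2 to 51.7 FPM with PBS and from 21.8 to 38.4 FPM with LPA, so that the groups touched at the level of lanes but not of libraries. Fits on lane 3 or lane 4 alone gave -0.42 and -0.45 and did not pass (limma, adjusted p = 0.0847 and 0.0919). The antisense gene DDIT4-AS1 overlaps DDIT4, is not listed in the table, and could not be told apart from it without the strand setting of the counting.

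SESN2, the leucine sensor, lay lower with LPA by a smaller step. Its level was 40.8, 41.5 and 40.7 FPM with PBS and 37.2, 36.3 and 37.4 FPM with LPA. The groups did not overlap at the level of libraries, and each was narrow, with SDs of 0.455 and 0.618 FPM. Single lanes did overlap, from 33.4 to 53.7 FPM with PBS and from 28.9 to 43.9 FPM with LPA. SESN2 rested on 224 to 325 reads per library, so the narrow spread of 3 libraries is not a measure of precision. The log2 difference on the deposited FPM was -0.15 (interval -0.33 to 0.03) and did not pass the threshold of 0.05 (limma, adjusted p = 0.235). On the rescaled values SESN2 was 44.0, 41.8 and 43.6 FPM with PBS and 35.9, 35.5 and 34.1 FPM with LPA, a difference of -0.29 that passed (interval -0.44 to -0.13, limma, adjusted p = 0.00725). The call for SESN2 thus depended on the scale, whereas its direction did not.

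**Figure D1:**
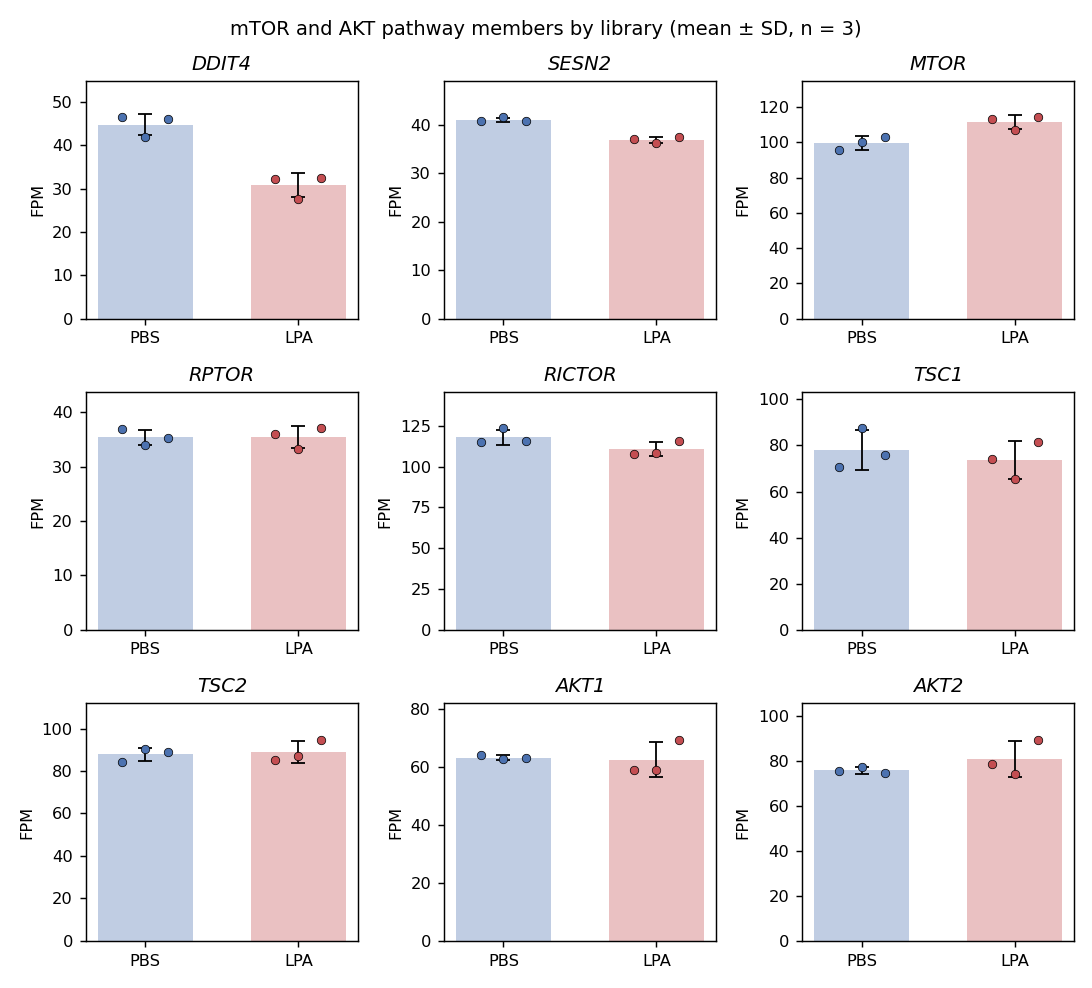
Level of each of the 9 genes in FPM (y axis, deposited scale) in the 3 PBS and 3 LPA libraries, each point 1 library as the mean of 4 lanes and each bar the group mean with its SD. DDIT4 falls from 44.8 to 30.8 FPM with no overlap, SESN2 and MTOR separate by smaller steps in opposite directions, and the other 6 genes overlap between the groups.

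The TSC genes encode the brake between AKT and mTORC1: TSC2 carries the GTPase-activating domain for RHEB and TSC1 stabilises it. TSC1 was 70.5, 87.4 and 75.7 FPM with PBS and 73.9, 65.3 and 81.6 FPM with LPA. These groups overlapped widely, with the highest value in PBS 2 and the lowest in LPA 2. The difference was -0.08 on the deposited FPM (interval -0.25 to 0.09, limma, adjusted p = 0.520) and -0.22 on the rescaled values, where it passed (interval -0.36 to -0.09, limma, adjusted p = 0.0163). TSC2 was 84.4, 90.5 and 88.7 FPM with PBS and 85.3, 87.0 and 94.8 FPM with LPA, again with overlap. Its difference was 0.02 on the deposited FPM (interval -0.13 to 0.16) and -0.12 on the rescaled values (interval -0.24 to -0.0090), and passed on neither (limma, adjusted p = 0.893 and 0.129). The 95% intervals are per gene and not adjusted for the number of genes tested, so one can exclude 0 where the adjusted p does not pass. TSC2 overlaps NTHL1 and PKD1 at its ends on the opposite strand, and PKD1 itself stood at 82.9 FPM, so some reads at the shared ends are of uncertain origin.

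MTOR, the kinase of both complexes, lay higher with LPA on the deposited scale only. It was 95.6, 100.2 and 103 FPM with PBS and 113, 107 and 114 FPM with LPA. All LPA libraries lay above all PBS libraries, but the difference of 0.16 did not pass (interval 0.02 to 0.30, limma, adjusted p = 0.0769), and on the rescaled values it was 0.02 with overlapping groups (limma, adjusted p = 0.852). RPTOR, the substrate-recruiting subunit of mTORC1, was 36.9, 34.0 and 35.3 FPM with PBS and 36.0, 33.3 and 37.0 FPM with LPA. Both group means were 35.4 FPM, and the 95% interval of the log2 difference ran from -0.19 to 0.19 (limma, adjusted p = 0.991). The rescaled difference was -0.14 and did not pass (limma, adjusted p = 0.280).

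RICTOR, the defining subunit of mTORC2, was the clearest case of a call that rests on the scale. On the deposited FPM it was 115, 123 and 116 with PBS and 108, 109 and 116 with LPA, with PBS 1 and LPA 3 in the same range. The difference of -0.09 did not pass (interval -0.23 to 0.05, limma, adjusted p = 0.360). After rescaling, the libraries of each group came together, at 124 FPM in each of the 3 PBS libraries and at 104, 106 and 105 FPM in the LPA libraries. The rescaled difference of -0.23 passed (interval -0.34 to -0.13, limma, adjusted p = 0.00107). The widening of the gap came with a smaller spread within each group, with SDs of 0.164 and 0.932 FPM after rescaling against 4.71 and 4.36 FPM before it. The lanes of 1 library had SDs of 3.60 to 7.94 FPM with PBS and 2.20 to 12.3 FPM with LPA on the deposited scale. RICTOR rested on 635 to 943 reads per library. SDs of 3 libraries so far below the lane spread are not a measure of precision.

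The AKT genes encode 2 of the kinases that receive the signal of PI3K. AKT1 was 64.1, 62.7 and 63.1 FPM with PBS and 59.0, 59.1 and 69.6 FPM with LPA. LPA 1 and 2 lay below the PBS libraries and LPA 3 above them, so the groups overlapped. The difference was -0.02 on the deposited FPM (interval -0.19 to 0.14) and -0.16 on the rescaled values (interval -0.30 to -0.027), with neither past the threshold (limma, adjusted p = 0.881 and 0.0885). AKT2 was 75.5, 77.4 and 74.7 FPM with PBS and 78.8, 74.4 and 89.6 FPM with LPA. LPA 3 was again the highest library, LPA 2 the lowest, and the difference of 0.09 did not pass (interval -0.07 to 0.24, limma, adjusted p = 0.438), nor did the rescaled difference of -0.05 (limma, adjusted p = 0.611).

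**Figure D2:**
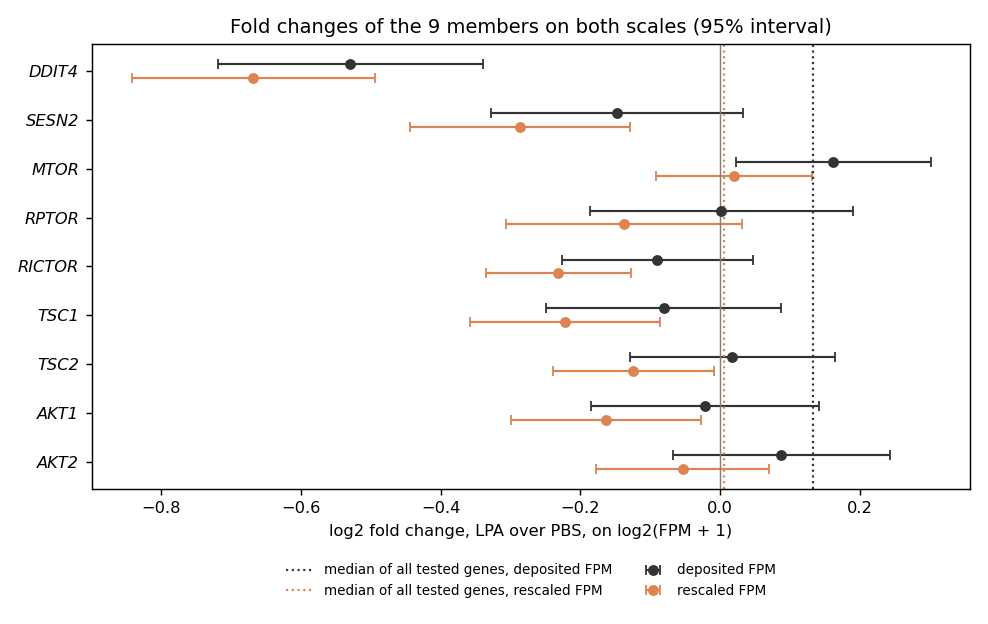
Log2 difference LPA minus PBS of each of the 9 genes with its unadjusted 95% interval (x axis), on the deposited FPM and on the rescaled FPM. DDIT4 lies below 0 on both scales with the whole interval, whereas the intervals of SESN2, RICTOR and TSC1 include 0 on the deposited scale and exclude it on the rescaled one, as do those of TSC2 and AKT1, which did not pass after adjustment.

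Counted over the pathway, 1 of 9 genes was lower and 0 were higher on the deposited FPM, where 27% of all tested genes were called, 4.49% lower and 22.5% higher. On the rescaled values 4 of 9 genes were lower, which were DDIT4, SESN2, RICTOR and TSC1, and 0 were higher, against 19.2% of all tested genes called, 9.19% lower and 10% higher. The median log2 difference of the 9 genes was -0.02 on the deposited FPM and -0.16 on the rescaled values, beside 0.13 and 0.0060 for all tested genes. A fit of recovered reads with edgeR's quasi-likelihood test called the same 4 genes lower and 0 higher, beside 20% of all tested genes called, 9.64% lower and 10.3% higher. Scaling to the reads on nuclear protein-coding genes gave 4 lower and 0 higher as well, beside 18.8% called, 10% lower and 8.76% higher. By the libraries themselves, 2 of 9 genes had all LPA values below all PBS values on the deposited FPM (7.42% of all tested genes) and 5 of 9 on the rescaled values (16.5%), TSC2 being added to the 4 that were called. MTOR alone had all LPA values above all PBS values on the deposited FPM (31.4% of all tested genes), and none of the 9 did on the rescaled values (17.1%). 

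To compare the genes with each other, FPM were divided by the length of the principal transcript in kilobases, from GENCODE release 29. With PBS, DDIT4 was the highest at 25.6 ± 1.43 FPM per kb, followed by AKT1 at 16.2 ± 0.185, AKT2 at 14.3 ± 0.260 and TSC2 at 14.3 ± 0.506 FPM per kb (SD, n = 3). RICTOR stood at 12.4 ± 0.494, SESN2 at 11.9 ± 0.132, MTOR at 11.5 ± 0.446, TSC1 at 9.04 ± 1.00 and RPTOR, the lowest, at 5.52 ± 0.223 FPM per kb. Neighbours in this order were apart in every library except AKT2 and TSC2, and SESN2 and MTOR, whose ranges overlapped. With LPA, DDIT4 at 17.6 ± 1.62 FPM per kb was no longer apart from AKT1 at 16.0 ± 1.55, and AKT1, AKT2 at 15.3 ± 1.48 and TSC2 at 14.4 ± 0.826 FPM per kb overlapped their neighbours as well. MTOR at 12.9 ± 0.442 FPM per kb then stood above RICTOR at 11.6 ± 0.457 and SESN2 at 10.7 ± 0.179 FPM per kb, and TSC1 and RPTOR kept the last places. Lengths are those of 1 annotated transcript per gene, so the order between genes depends on that choice, while the order between groups of 1 gene does not.

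Ratios between partner genes do not depend on the scaling of a library. The ratio of DDIT4 to SESN2, per kb, was 2.25, 1.99 and 2.23 with PBS and 1.72, 1.50 and 1.72 with LPA, without overlap. That of AKT1 to AKT2 was 1.15, 1.10 and 1.14 with PBS and 1.01, 1.08 and 1.05 with LPA, also without overlap but by a narrow margin. The ratio of RPTOR to RICTOR, the subunits that set mTORC1 apart from mTORC2, was 0.478, 0.411 and 0.455 with PBS and 0.497, 0.457 and 0.476 with LPA. The groups overlapped there, as they did for TSC1 to TSC2, which was 0.597, 0.691 and 0.610 with PBS and 0.620, 0.537 and 0.615 with LPA. These ratios were not tested.

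The remaining genes of the pathway were taken as 8 lists with 144 entries, of which 142 were listed in the table and 138 were tested. On the deposited FPM 37 (26.8%) were higher and 14 (10.1%) lower with LPA, beside 22.5% and 4.49% of all tested genes. On the rescaled values 14 (10.1%) were higher and 28 (20.3%) lower, beside 10% and 9.19%. Of the 51 called on the deposited FPM, 28 were also called in the same direction on the rescaled values. The stress-induced partners and regulators of DDIT4 and SESN2 had 22 tested genes, of which 8 (36.4%) fell and 1 rose, with a median log2 difference of -0.16 (0.13 over all tested genes). On the rescaled values 11 (50%) fell and 1 (4.55%) rose, with a median of -0.30, beside 9.19% and 10% of all tested genes. The lists were chosen with earlier results of these data known, and their shares may reflect that choice. PPP1R15A, the stress-induced subunit of the eIF2 alpha phosphatase, fell from 82.7 ± 1.95 to 50.2 ± 1.24 FPM (log2 difference -0.71, limma, adjusted p = 4.94e-10). TXNIP, which binds thioredoxin and is a known partner of DDIT4, fell from 102 ± 6.31 to 71.2 ± 4.83 FPM (-0.51, limma, adjusted p = 4.93e-07). ATF3, a stress-induced transcription factor, fell from 38.9 ± 3.06 to 25.5 ± 2.95 FPM (-0.59, limma, adjusted p = 8.37e-06). The gene that rose was FKBP5, a co-chaperone of the glucocorticoid receptor, from 25.9 ± 1.07 to 42.6 ± 2.75 FPM (0.69, limma, adjusted p = 1.43e-07). These 4 were called on both scales.

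The other genes of that list that fell were named after their values were seen. DDIT3, the stress transcription factor CHOP, went from 27.4 to 19.9 FPM (log2 difference -0.45, limma, adjusted p = 0.00113). ATF4, the transcription factor of the integrated stress response upstream of DDIT3, TRIB3 and SESN2, moved little, from 379 to 345 FPM (-0.14, limma, adjusted p = 0.0472). TRIB3, an inhibitor of AKT in some cells, CEBPB and PER1 fell by 0.30, 0.33 and 0.40 on the log2 scale (limma, adjusted p = 0.0203, 0.0141 and 0.0245). The number that fell was 5 without PBS 1 or without LPA 2, and the number that rose was 4 without PBS 2 and 2 without LPA 1. Over all tested genes, 4397 were called in either direction with all libraries. Without PBS 1, LPA 2, PBS 2 or LPA 1 that number was 3360, 3742, 5202 or 3404. ATF4 lost its call when any library except PBS 2 was left out (-0.15 to -0.11), TRIB3 without PBS 1 (-0.28), PBS 2 (-0.26) or LPA 1 (-0.21), and CEBPB without LPA 2 (-0.27). PER1 lost it without PBS 1 (-0.37), PBS 3 (-0.41), LPA 2 (-0.39) or LPA 3 (-0.34). All 8 genes that fell were also called lower on the rescaled values.

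Among the subunits and inhibitors of the mTOR complexes, 4 (50%) of 8 tested genes rose and 0 fell (median log2 difference 0.27). On the rescaled values, however, 1 (12.5%) rose and 1 (12.5%) fell. Over all tested genes, 22.5% rose and 4.49% fell on the deposited FPM, and 10% and 9.19% on the rescaled values. PRR5, an mTORC2 subunit, rose from 33.4 ± 3.93 to 48.9 ± 1.94 FPM (log2 difference 0.54, limma, adjusted p = 1.10e-05) and was called on both scales. MAPKAP1, the mTORC2 subunit SIN1, rose from 83.1 ± 2.45 to 103 ± 5.69 FPM on the deposited scale (0.30, limma, adjusted p = 0.00117) and did not pass on the rescaled one (adjusted p = 0.0561). TTI2 and TTI1, which help to fold and stabilise MTOR and related kinases, rose by 0.50 and 0.24 on the deposited scale alone (limma, adjusted p = 0.0122 and 0.0436). TTI2 lost its call without PBS 3 (0.42) or LPA 3 (0.44) and TTI1 without PBS 1 (0.17), PBS 3 (0.27), LPA 2 (0.24) or LPA 3 (0.20), and without PBS 3 or without LPA 3 the number that rose was 2. Over all tested genes, 3359 without PBS 3 and 3170 without LPA 3 were called in either direction, against 4397 with all libraries. RICTOR, which shares mTORC2 with PRR5 and MAPKAP1, was lower on the rescaled values and not called on the deposited ones.

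The RHEB branch held changes in both directions. RHEBL1, a RHEB-like GTPase, fell from 29.3 ± 2.40 to 18.2 ± 0.854 FPM (log2 difference -0.66, limma, adjusted p = 5.53e-06), and TBC1D7, a subunit of the TSC complex, rose from 40.8 ± 1.66 to 52.8 ± 0.507 FPM (0.37, limma, adjusted p = 0.000890), both on both scales. ARF1, a small GTPase of the Golgi that can promote mTORC1 signalling, rose by 0.27 on the deposited scale alone (limma, adjusted p = 0.00194). Of 5 tested genes in this list 2 rose and 1 fell (median log2 difference 0.08), beside 22.5% and 4.49% of all tested genes. On the rescaled values 1 rose and 2 fell (median -0.046), beside 10% and 9.19%. The additional one was RHEB itself, named after its values were seen, at 61.9 ± 0.705 FPM with PBS and 57.6 ± 2.47 FPM with LPA. Its difference was -0.10 on the deposited FPM and -0.24 on the rescaled values (limma, adjusted p = 0.378 and 0.0102). TSC1 and TSC2, the other subunits of the TSC complex, did not rise on either scale.

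In the PI3K and AKT list, 4 (16.7%) of 24 tested genes rose, 2 (8.33%) fell and 18 did not pass (median log2 difference 0.13). This stood beside 22.5% higher and 4.49% lower among all tested genes. On the rescaled values 3 (12.5%) rose and 4 (16.7%) fell, beside 10% and 9.19%. PIK3CG, a catalytic subunit that acts downstream of G protein-coupled receptors, rose from 69.1 ± 10.9 to 98.6 ± 5.51 FPM (0.52, limma, adjusted p = 7.95e-06). PIK3IP1, an inhibitor of PI3K, fell from 48.5 ± 2.34 to 35.8 ± 1.60 FPM (-0.43, limma, adjusted p = 0.000232). PIK3R4, a subunit of the class III PI3K, and PIK3R1, the p85 alpha regulatory subunit, rose by 0.36 and 0.40 (limma, adjusted p = 0.000818 and 0.000853). These 4 were called on both scales. The other 2 were named after their values were seen: PIK3C2B, a class II kinase, fell by 0.42 on the deposited scale and was called on both, while PIK3C3, the class III kinase, rose by 0.26 on the deposited scale alone (limma, adjusted p = 0.00288 and 0.00559). PIK3C3 lost its call without PBS 1 (0.20), and without PBS 2 the number that rose was 7. Over all tested genes the number called in either direction was 5202 without PBS 2, against 4397 with all libraries.

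Genes of amino acid sensing, through which SESN2 acts, included 9 that rose and 0 that fell among 30 tested. The median log2 difference of 0.14 and the share of 30% that rose lay near the 0.13 and 22.5% of all tested genes. On the rescaled values 2 (6.67%) rose and 4 (13.3%) fell, beside 10% and 9.19%. CASTOR2, of the family of arginine sensors that bind GATOR2, rose from 48.7 ± 3.28 to 71.0 ± 6.18 FPM (0.53, limma, adjusted p = 2.03e-06), and has near-identical copies that make its value uncertain. SEH1L, a subunit of GATOR2 and of the nuclear pore, rose from 43.6 ± 1.23 to 56.4 ± 2.64 FPM (0.36, limma, adjusted p = 0.000852). Both were called on both scales, whereas RRAGD, a RAG GTPase, and LAMTOR5, a subunit of the Ragulator, rose by 0.27 and 0.32 on the deposited scale alone (limma, adjusted p = 0.00149 and 0.00711). LAMTOR5 lost its call without PBS 1 (0.27), and the number of genes that rose was 5 without PBS 3 or without LPA 3. In the list of AMPK and energy sensing, 3 (27.3%) of 11 tested genes rose, 0 fell and 8 did not pass. On the rescaled values 1 (9.09%) rose. Among all tested genes 22.5% rose on the deposited FPM and 10% on the rescaled values. PRKAG1, the gamma subunit of AMPK, rose by 0.37 on the deposited FPM (limma, adjusted p = 0.00105) and was called on both scales. CAMKK2, a kinase that activates AMPK, and STRADB, a partner of the AMPK kinase STK11, rose by 0.21 and 0.30 on the deposited scale alone (limma, adjusted p = 0.0219 and 0.0245). CAMKK2 lost its call without PBS 3 (0.22), LPA 1 (0.23) or LPA 3 (0.16), and STRADB without PBS 1 (0.28), PBS 3 (0.23), LPA 1 (0.32) or LPA 3 (0.27). The number that rose in this list was 6 without PBS 2 and 1 without any 1 of PBS 3, LPA 1 and LPA 3. Over all tested genes, 4397 were called in either direction with all libraries and 5202 without PBS 2. Without PBS 3, LPA 1 or LPA 3 that number was 3359, 3404 or 3170.

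**Figure D3:**
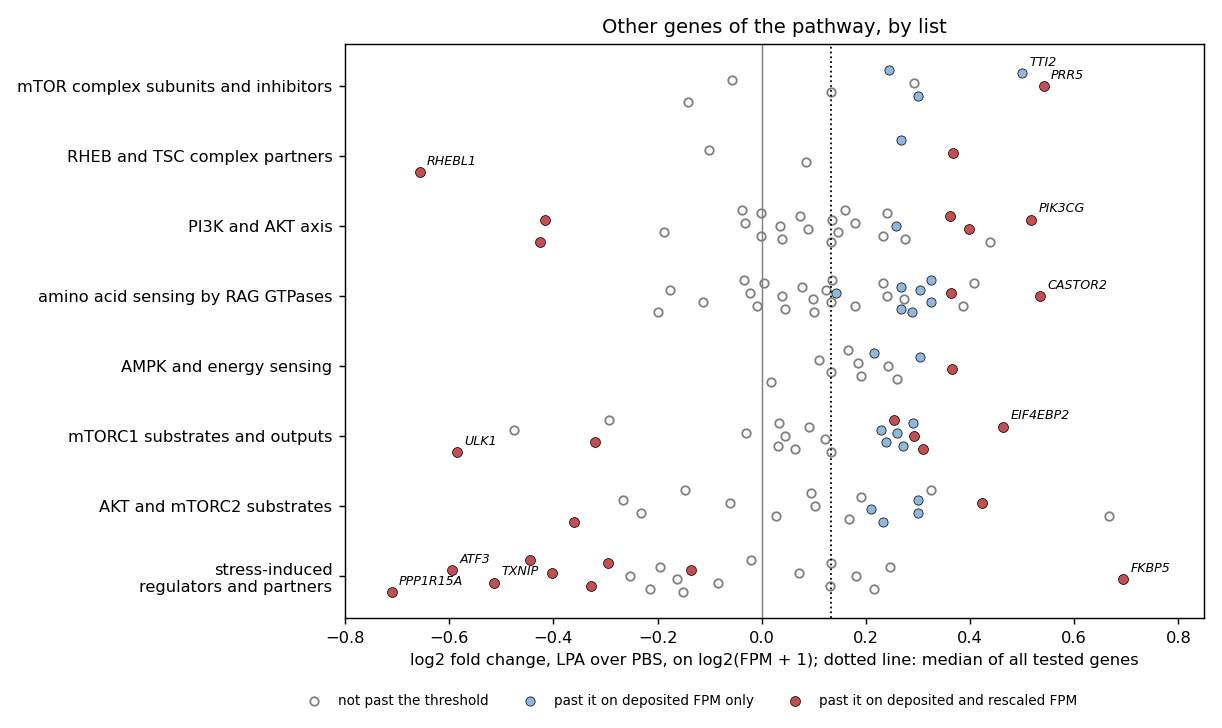
Log2 difference LPA minus PBS (x axis, deposited FPM) of each tested gene in the 8 lists of the pathway, 1 point per gene, open where it did not pass, blue where it passed on the deposited FPM alone and red where it passed on both scales, with a dotted line at the median of all tested genes. The list of stress-induced partners of DDIT4 and SESN2 has its median at -0.16, and the medians of the other 7 lists lie between 0.08 and 0.27 around the 0.13 of all tested genes.

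Downstream of mTORC1, 9 (42.9%) of 21 tested genes rose, 2 (9.52%) fell and 10 did not pass (median log2 difference 0.12). On the rescaled values 4 (19.0%) were higher and 5 (23.8%) lower. The shares over all tested genes were 22.5% and 4.49% on the deposited FPM, and 10% and 9.19% on the rescaled values. ULK1, the autophagy-initiating kinase that mTORC1 inhibits, fell from 52.9 ± 2.37 to 34.9 ± 0.359 FPM (-0.59, limma, adjusted p = 8.34e-07). PDCD4, an inhibitor of translation that is degraded after phosphorylation by S6 kinase, fell from 433 ± 10.8 to 346 ± 5.76 FPM (-0.32, limma, adjusted p = 3.24e-06). EIF4EBP2, a repressor of cap-dependent translation, rose from 101 ± 5.53 to 139 ± 7.02 FPM (0.46, limma, adjusted p = 6.49e-07), and EIF4B, a translation initiation factor, rose by 0.29 (limma, adjusted p = 3.13e-06). All 4 were called on both scales. Among substrates of AKT and mTORC2, 5 (29.4%) of 17 tested genes rose, 1 (5.88%) fell and 11 did not pass (median 0.17). On the rescaled values 1 (5.88%) was higher and 1 (5.88%) lower. NDRG1, a substrate of the mTORC2-dependent kinase SGK1 that is also induced by hypoxia, fell from 208 ± 14.1 to 162 ± 12.2 FPM (-0.36, limma, adjusted p = 2.10e-05). ACLY, the ATP citrate lyase of lipid synthesis, rose from 109 ± 4.61 to 146 ± 9.63 FPM (0.42, limma, adjusted p = 3.02e-06), and both were called on both scales. GSK3B, a kinase that AKT inhibits, and MDM2, the p53 ubiquitin ligase, rose by 0.30 and 0.21 on the deposited scale alone (limma, adjusted p = 0.00166 and 0.0160), as did GSK3A and PFKFB2, by 0.23 and 0.30, which were named after their values were seen (limma, adjusted p = 0.0396 and 0.0246). MDM2 lost its call without PBS 1 (0.16), PBS 3 (0.20), LPA 1 (0.20) or LPA 3 (0.19), GSK3A without PBS 1 (0.17), PBS 3 (0.26), LPA 2 (0.20) or LPA 3 (0.22), and PFKFB2 without PBS 2 (0.26), PBS 3 (0.23) or LPA 3 (0.24), and the number of genes that rose was 3 without PBS 1 and 2 without LPA 3. Over all tested genes, 3360 without PBS 1 and 3170 without LPA 3 were called in either direction, against 4397 with all libraries. These are transcript levels, and the phosphorylation of these proteins was not measured.

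The genes whose pattern over the 6 libraries was most like that of DDIT4 were found among 10135 tested genes with a mean of at least 10 FPM, by the root mean square difference of centred log2(FPM + 1) values. The closest was SHFL, an interferon-induced antiviral gene, with a difference of 0.0376. Its level was 26.5, 24.2 and 27.3 FPM with PBS and 17.7, 16.4 and 18.4 FPM with LPA. It shared with DDIT4 the lowest value of each group in library 2. MAPK12, the p38 gamma kinase, followed at 0.0451, LMNA, which encodes lamin A and C, at 0.0525, IRF2BPL at 0.0565 and JUND, an AP-1 transcription factor, at 0.0601. JUND was the most abundant of them, at 104, 95.8 and 93.5 FPM with PBS and 67.9, 62.8 and 70.8 FPM with LPA. These genes were selected for their likeness, so their differences are given with no test.

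**Figure D4:**
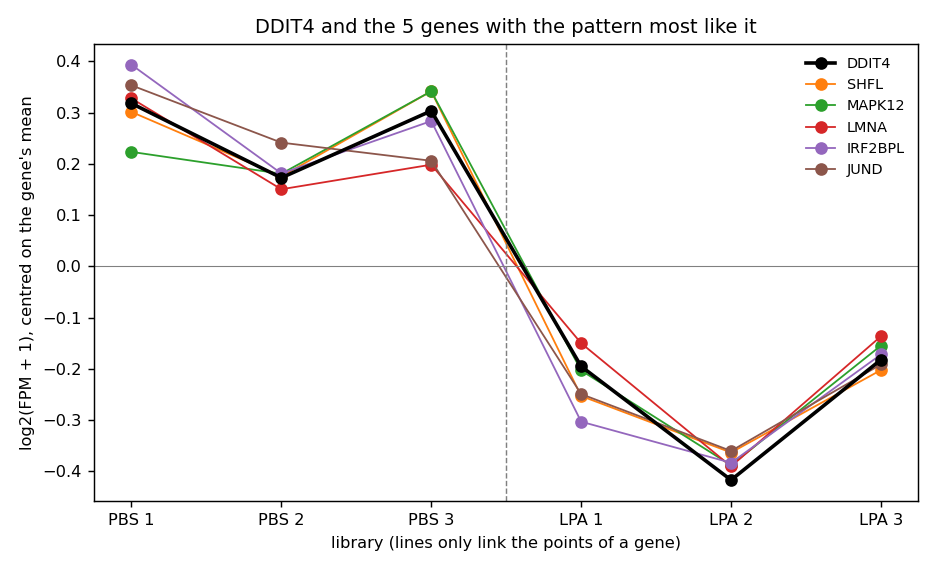
Centred log2(FPM + 1) values (y axis) of DDIT4 and of the 5 genes most like it in the 6 libraries (x axis). All 6 lines lie above their mean in the 3 PBS libraries and below it in the 3 LPA libraries, with LPA 2 the lowest library of DDIT4 at 27.5 FPM.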

How the data were processed

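RNA-seq values were analysed for 24 lane samples of 6 libraries. The table deposited by the authors gives FPM (CPM of fragments), scaled within each lane. The sources used here do not give the aligner, the counting rule or the strand setting. Gene identifiers are human Ensembl identifiers, although mm10, a mouse build, is what the submitters' processing notes list. Of 19345 gene rows 187 repeated an identifier and were dropped, leaving 19158 genes. The listed genes hold 86.5% to 91.6% of each library's counted reads.

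Lanes were averaged per library. LPA and PBS, 3 libraries each, were compared on log2(FPM + 1) for 16274 genes with at least 1 FPM in 3 libraries, with limma 3.58.1 (trend, robust, two-sided, Benjamini-Hochberg over all tested genes, threshold 0.05) in R 4.3.3, so fold changes of low genes are understated. FPM steps gave whole reads for 100% of values within 0.02 reads. These were fitted with edgeR 4.0.16 and DESeq2 1.42.0 as alternatives, beside other scalings, filters, pseudocounts, single lanes and left-out libraries. The limma, edgeR and DESeq2 fits were tested on simulated data, but the other scalings, filters, pseudocounts, single lanes and left-out libraries were not. One read was worth 0.114 to 0.182 FPM per library. Sequences came from RefSeq, GRCh38.p14. Members and lists were chosen with earlier results of these data known, and 1 gene of the lists is not reported here. Named were the 9 genes, up to 4 called genes with the smallest p of each list, and the 5 genes most like DDIT4; others are marked as named after their values were seen.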

Additional observations from a re-analysis of the deposited data

How the results depend on the processing

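DDIT4 stayed lower in all 22 alternatives, between -0.76 and -0.42 on the log2 scale, and lost its call in lane 3 alone (-0.42) and lane 4 alone (-0.45); leaving out 1 library at a time gave -0.58 to -0.45 with the call kept each time (limma). The number of the 9 genes called lower was 1 as reported, 4 on FPM rescaled by median-of-ratios factors, 4 with TMM factors, 4 with edgeR, 4 per protein-coding reads, 3 after removing a trend on GC content and length, 2 with DESeq2, and 0 in lane 3 and 0 in lane 4. MTOR was not called in any alternative. The number of all genes called was 4397 as reported, 1745 with DESeq2, and 1554, 1565, 1502 and 1494 in lanes 1, 2, 3 and 4 alone. Leaving out single libraries gave 3170 to 5202. The last 3 settings, per protein-coding reads, GC and length, and without PBS 2 and LPA 3 together (DDIT4 -0.62), were chosen after seeing the data.

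Same-numbered libraries showed no common deviation over all tested genes (correlations -0.012, -0.038 and -0.049). Genes with few reads count as much as others there, so this check cannot exclude that the numbers pair the libraries. With the replicate number as a block 4059 genes were called and DDIT4 stayed at -0.53.

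Differences that were not called changed sign as follows, and the cause was not tested. In the order median-of-ratios, TMM, edgeR, DESeq2 and protein-coding reads, RPTOR became -0.14, -0.14, -0.14, -0.15 and -0.15, TSC2 -0.12, -0.13, -0.13, -0.13 and -0.14, and AKT2 -0.053, -0.054, -0.054, -0.058 and -0.069; all of these scales lower the median of all genes by more than 0.1. After the GC and length trend was removed RPTOR was -0.056 and TSC2 -0.029, and without PBS 2 and LPA 3 they were -0.057 and -0.0071. In single lanes RPTOR was -0.14 in lane 4, RICTOR 0.087 in lane 2, TSC1 0.11 in lane 1, TSC2 -0.090 in lane 3 and -7.9e-05 in lane 4, and AKT1 0.048 in lane 1 and 0.070 in lane 3. Leaving out single libraries gave RPTOR -0.029 to 0.045, TSC1 -0.16 to 0.0043, TSC2 -0.028 to 0.048 and AKT1 -0.099 to 0.018. Each of these genes rested on 188 to 943 reads per library.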
